A study of Rattus norvegicus with 6 samples.

Results

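The mitochondrial genome is a small circular DNA that each mitochondrion carries in many copies. The 37 genes of the deposited table that lie on it (chromosome MT) are described here, out of 31368 genes in all. They were chosen by chromosome alone and comprise 13 protein-coding genes, 2 ribosomal RNAs (rRNAs) and 22 transfer RNAs (tRNAs). RNA of renal tissue was sequenced from wild-type male Sprague-Dawley rats, in which a disease model was set up at 8 weeks of age. The 3 control libraries are labelled Sham and the 3 disease libraries CKD (chronic kidney disease). The sources used here state neither how the disease was induced nor whether each library came from its own animal, so p-values measure the spread between these libraries, which may be technical. In whole tissue, fewer cells of a type and less RNA per cell cannot be told apart.

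The proteins of the mitochondrial genome are core subunits of the respiratory chain, which pumps protons with energy from electrons, and of the ATP synthase that the protons drive. Both strands are transcribed as long precursors. Most messenger RNAs (mRNAs) are freed when the tRNAs between them are cut out, and the rRNAs build the ribosome that translates the mRNAs inside the organelle. Kidney tubule cells are rich in mitochondria, since reabsorption consumes much ATP.

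Libraries held between 15918035 and 17503644 counts. Mitochondrial genes took 14.4%, 37.9% and 15.3% of them in Sham 1, 2 and 3, and 8.88%, 8.83% and 10.8% in CKD 1, 2 and 3. All CKD libraries lay below all Sham libraries, and Sham 2 stood apart with 2.55 times the mean share of the other Sham libraries. The group means were 22.5% ± 13.3 in Sham and 9.50% ± 1.12 in CKD (SD, n = 3 each). Exact 95% binomial intervals of the shares were at most 0.046 percentage points wide and cover counting error only. Without Sham 2 the Sham mean was 14.8%, or 1.56 times the CKD mean.

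**Figure D1:**
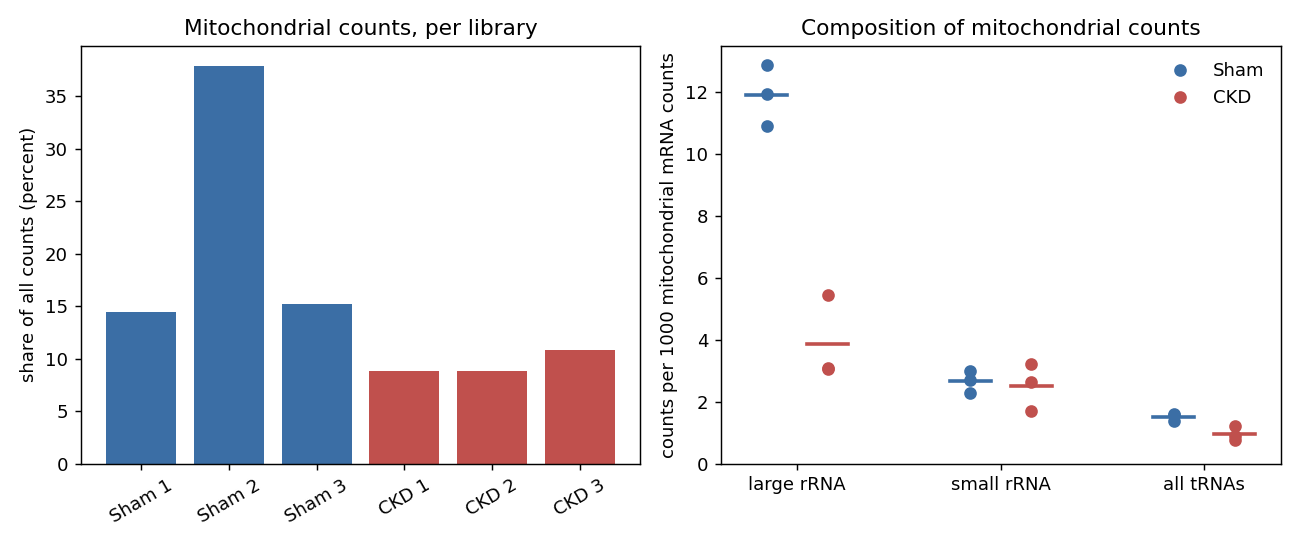
Left, bars give the share of all counts, in percent, taken by the 37 mitochondrial genes in each library. Right, points are libraries and lines group means of large rRNA, small rRNA and all tRNAs per 1000 mitochondrial mRNA counts; the large rRNA lies between 10.9 and 12.9 in Sham and between 3.07 and 5.45 in CKD, while the small rRNA overlaps between groups.

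Each gene was compared in CPM, its counts per 1000000 counts of a library size scaled with TMM. Of the 37 genes 28 had enough counts to be tested, and each of the 28 was lower in every CKD library than in any Sham library. Of these, AY172581.1 and AY172581.19 missed the minimum in at least 1 CKD library and were tested through their level in Sham, so the 28 do not stand for all 37. Among all 15371 genes tested, 12.4% were lower without overlap. By edgeR's quasi-likelihood test, adjusted over all genes at a threshold of 0.05, 8 of the 28 fell: the large rRNA, the mRNA Mt-atp8 and 6 tRNAs. The background was 1.15% of all genes called lower and 3.82% called in either direction. Before adjustment 27 of the 28 had p below 0.05, against 23.8% of all genes. The median log2 fold change, CKD minus Sham, was -1.97 over the 28 genes and -0.0082 over all genes.

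These calls depended on single libraries. Leaving out Sham 2, CKD 1 or CKD 2 left 0 mitochondrial genes past the threshold in edgeR, while 27 of 28, 20 of 29 and 19 of 29 had p below 0.05 before adjustment, against 27.0%, 14.8% and 14.6% of all genes in the same fits. Over all genes the same fits called 2, 0 and 0. Without Sham 3 there was 1 mitochondrial call, against 7 of all 15849 genes tested. Without CKD 3 there were 2, against 413 of 15807, and without Sham 1 there were 17, against 1711 of 15900. DESeq2 called 28 mitochondrial genes and limma-voom 3, against 2497 and 195 of all 15371 genes. Each tested mitochondrial gene had a negative log2 fold change in all of these fits. Their median was -1.28 without Sham 2. Scaling to library totals shifted the median of all genes to 0.41 and that of the mitochondrial genes to -1.53. It called 8 mitochondrial genes, against 2228 of all 15371 genes.

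**Figure D2:**
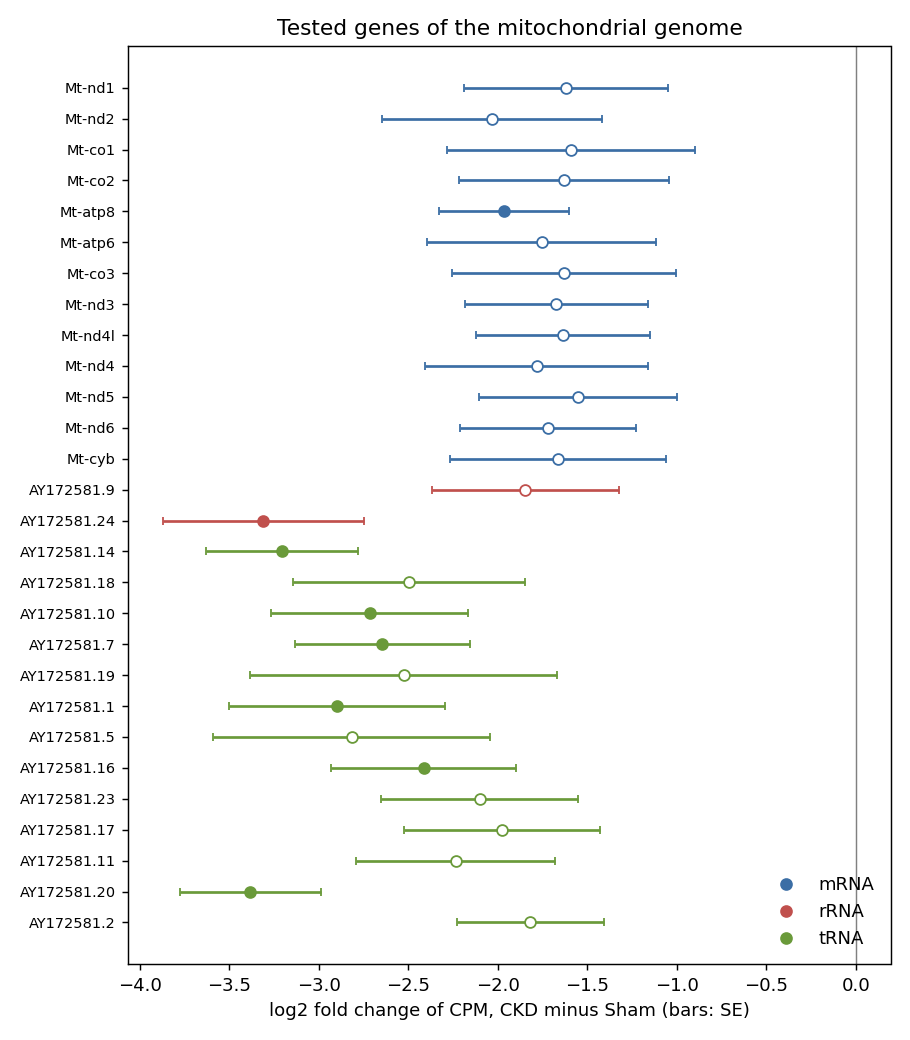
Points are log2 fold changes of CPM (CKD minus Sham) and bars their standard errors for the 28 tested genes, by class and then in genome order. Filled points passed an adjusted p of 0.05; all values are below 0, from -1.55 to -3.38, and the mRNAs sit between -1.55 and -2.03.

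The 13 mRNAs had log2 fold changes from -1.55 (Mt-nd5) to -2.03 (Mt-nd2) with a median of -1.66, and 1 of the 13 passed. Adjusted p-values of the other 12 ran from 0.0872 to 0.214 in edgeR.

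Complex I takes electrons from NADH, and 7 of its membrane subunits are encoded here. Mt-nd1 stood at 11897, 25594 and 9268 CPM in Sham 1, 2 and 3 and at 4299, 4644 and 6273 in CKD 1, 2 and 3. Mt-nd2 stood at 10204, 28456 and 10307 CPM in the Sham and at 3208, 3527 and 5221 in the CKD libraries. Sham 2 was the highest library for both genes and CKD 3 the highest of its group, below all Sham libraries. The log2 fold changes were -1.62 ± 0.57 for Mt-nd1 and -2.03 ± 0.61 for Mt-nd2 (SE), with edgeR adjusted p = 0.140 and 0.0980. Mt-nd3, Mt-nd4, Mt-nd4l, Mt-nd5 and Mt-nd6 had values of -1.67, -1.78, -1.64, -1.55 and -1.72 and did not pass either. Mt-nd6 is the only mRNA that the table places on the minus strand, and it stood at 1065, 3276 and 1358 CPM in Sham against 534, 545 and 654 in CKD. Per 1000 counts of the plus-strand mRNAs there were 6.51, 7.40 and 8.13 counts of Mt-nd6 in the Sham libraries and 7.24, 7.21 and 6.94 in the CKD libraries. The CKD ratios lay within the range of the Sham ratios.

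Mt-cyb encodes cytochrome b, the membrane subunit of complex III that oxidises ubiquinol. It stood at 17034, 41902 and 15530 CPM in Sham and at 7056, 7267 and 9180 in CKD. Its log2 fold change was -1.66 ± 0.60 (SE), and it did not pass (edgeR adjusted p = 0.149).

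Complex IV passes electrons to oxygen, and Mt-co1, Mt-co2 and Mt-co3 encode its core. Mt-co1, the catalytic subunit, had the most counts of the mitochondrial genes in each of the 6 libraries. It stood at 55163, 150052 and 58567 CPM in Sham and at 27892, 27148 and 32497 in CKD. Its log2 fold change of -1.59 ± 0.69 had the highest adjusted p of the 28 genes (edgeR adjusted p = 0.214). Mt-co2 and Mt-co3 had log2 fold changes of -1.63 each, with edgeR adjusted p = 0.148 and 0.170.

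Mt-atp6 and Mt-atp8 encode membrane subunits of the ATP synthase (complex V) and overlap on the genome. Mt-atp6 stood at 19301, 56566 and 20871 CPM in Sham and at 8501, 9046 and 11084 in CKD. The log2 fold change of -1.76 ± 0.64 did not pass (edgeR adjusted p = 0.151). Mt-atp8 had 678, 1435 and 631 counts in the Sham libraries and 290, 313 and 372 in the CKD libraries. It fell by 1.97 ± 0.36 on the log2 scale (SE; edgeR adjusted p = 0.0399; called under 9 of 16 alternatives, adjusted p 3.88e-05 to 0.171). In the table's coordinates Mt-atp8 (MT 7758 to 7961) shares 43 of its 204 bases with Mt-atp6 (MT 7919 to 8599). The sources used here do not say how reads in shared bases were assigned, which leaves the counts of Mt-atp8 uncertain. The same holds for 7 bases shared by Mt-nd4l and Mt-nd4, and for 23 shared by Mt-nd5 and Mt-nd6 on opposite strands. In total 7 pairs of neighbouring mitochondrial genes overlap, among them Mt-co1 and AY172581.19 with 3 bases.

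Levels of different genes were compared per length, in CPM per kb. The Sham means were 56911 ± 34841 for Mt-co1, 47351 ± 30949 for Mt-atp6 and 34745 ± 22982 for Mt-co3 (SD, n = 3). These held the first 3 ranks in each of the 6 libraries. Mt-co2 (22609 ± 14668) and Mt-cyb (21716 ± 12958) followed, and changed places in Sham 1 and CKD 3. Mt-nd4, Mt-nd1 and Mt-nd2 shared ranks 6 to 8 in an order that differed between libraries. Mt-nd4l, Mt-nd5, Mt-nd3 and Mt-nd6 held ranks 9 to 12 in all 6. The 2 rRNAs came next, and Mt-atp8 was last of the 15 genes in each library, at 310.3 ± 157 CPM per kb in Sham and 79.4 ± 12.7 in CKD. How reads in the bases it shares with Mt-atp6 were assigned is unknown here. Its level and rank are therefore uncertain and may not give the amount of its RNA. In all, 8 of the 15 genes held the same rank in every library.

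**Figure D3:**
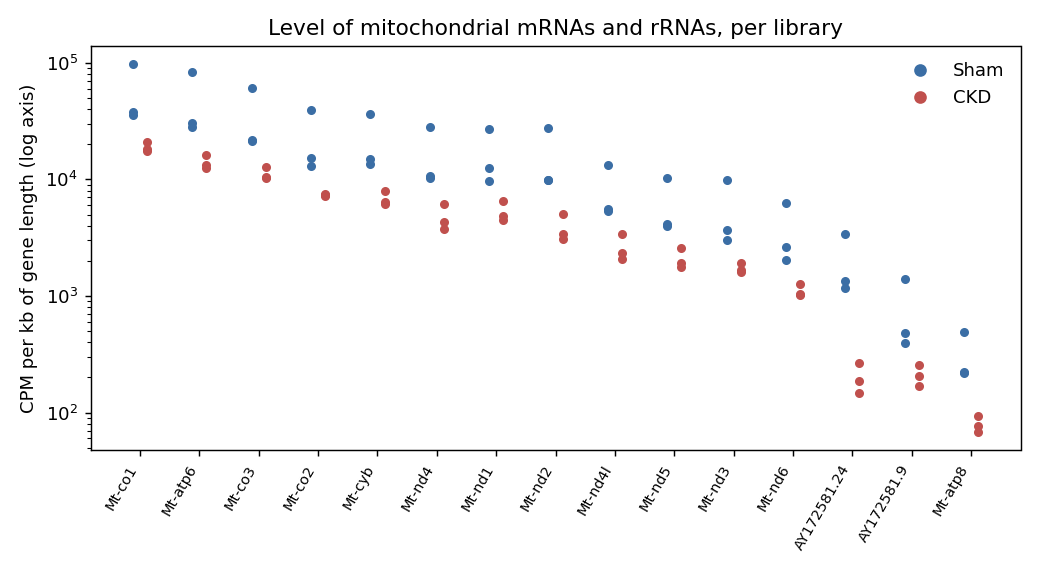
Points are the 6 libraries' levels in CPM per kb of gene length, on a log axis, for 13 mRNAs and 2 rRNAs ordered by their mean in Sham. Every CKD point lies below all Sham points of the same gene; the mean of the large rRNA (AY172581.24) is 1968 ± 1232 in Sham and 198 ± 60.1 in CKD (SD, n = 3 each).

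The table names the rRNA genes AY172581.9 (MT 68 to 1025) and AY172581.24 (MT 1094 to 2664). By length they are called the small and the large rRNA here, after the ribosomal subunits they form. The large rRNA had 31815, 76161 and 26055 counts in Sham 1, 2 and 3 and 4757, 8349 and 5686 in CKD 1, 2 and 3. It fell by 3.31 ± 0.56 on the log2 scale, or 9.91-fold (SE; edgeR adjusted p = 0.0367; called under 10 of 16 alternatives, adjusted p 6.71e-10 to 0.169). Without Sham 2 the log2 fold change was -2.71 and did not pass (edgeR adjusted p = 0.0552). The small rRNA had 5653, 19042 and 6497 counts in Sham against 4065, 4930 and 3132 in CKD. Its log2 fold change of -1.85 ± 0.52 lay within the range of the mRNAs and did not pass (edgeR adjusted p = 0.0857).

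The large rRNA was also lower relative to the mRNAs of its own library. There were 12.9, 11.9 and 10.9 large rRNA counts per 1000 mitochondrial mRNA counts in Sham 1, 2 and 3, and 3.09, 5.45 and 3.07 in CKD 1, 2 and 3. The lowest Sham ratio lay well above the highest CKD ratio, and Sham 2 lay between the other Sham libraries. For the small rRNA the ratios were 2.29, 2.98 and 2.72 in Sham and 2.64, 3.22 and 1.69 in CKD, which overlapped. Large rRNA counts divided by small rRNA counts gave 5.63, 4.0 and 4.01 in Sham and 1.17, 1.69 and 1.82 in CKD.

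Neither rRNA was abundant in these libraries. Together they made up 1.49%, 1.47% and 1.34% of mitochondrial counts in Sham and 0.569%, 0.859% and 0.473% in CKD. All tRNAs together made up 0.134%, 0.155% and 0.157% in Sham and 0.120%, 0.0880% and 0.0758% in CKD, and mRNAs the rest. Whether the libraries were made by poly(A) selection or by rRNA depletion is unknown from the sources used here. The 210 genes outside the mitochondrial genome annotated as rRNA summed to 1287, 735 and 1005 unscaled CPM in Sham against 1099, 1177 and 742 in CKD, which overlapped. Small nuclear RNAs summed to 9.02, 31.2 and 32.7 unscaled CPM in Sham against 10.2, 8.80 and 10.9 in CKD, and small nucleolar RNAs to 35.4, 154 and 105 and 43.6, 35.1 and 40.4. In both of these classes Sham 1 lay within the range of the CKD libraries, and Sham 2 and Sham 3 lay above it. The part of RNA selection or RNA integrity in the rRNA difference was not tested.

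Transfer RNAs carry the amino acids to the mitochondrial ribosome. The table gives their genes serial names without the amino acid. Of the 22 genes 13 were tested, and 6 fell: AY172581.20, AY172581.14, AY172581.7, AY172581.10, AY172581.1 and AY172581.16. Log2 fold changes of the 13 ran from -1.82 to -3.38. How reads that cross from a tRNA gene into its neighbour were assigned is unknown here, which leaves the tRNA counts uncertain.

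AY172581.20, on the minus strand at MT 14062 to 14130 between Mt-nd6 and Mt-cyb, had 435, 606 and 228 counts in Sham against 57, 51 and 60 in CKD. It fell by 3.38 ± 0.39 on the log2 scale, or 10.4-fold (edgeR adjusted p = 0.0278; called under 12 of 16 alternatives, adjusted p 7.3e-13 to 0.148). Its neighbours Mt-nd6 and Mt-cyb had log2 fold changes of -1.72 and -1.66. AY172581.14, on the plus strand at MT 2665 to 2739, starts on the base after the large rRNA and ends on the base before Mt-nd1. It had 158, 255 and 122 counts in Sham against 26, 20 and 34 in CKD. It fell by 3.21 ± 0.42 (edgeR adjusted p = 0.0285; called under 11 of 16 alternatives, adjusted p 1.57e-10 to 0.152), next to -3.31 for the large rRNA and -1.62 for Mt-nd1.

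AY172581.10 and AY172581.7 lie side by side on the minus strand (MT 5185 to 5252 and MT 5256 to 5321), ahead of Mt-co1. AY172581.10 had 920, 3346 and 1349 counts in Sham against 615, 324 and 264 in CKD, and AY172581.7 had 264, 810 and 309 against 118, 118 and 73. They fell by 2.72 ± 0.55 and 2.65 ± 0.49 (edgeR adjusted p = 0.0448 and 0.0399), and each was called under 9 of 16 alternatives. AY172581.1, between Mt-co2 and Mt-atp8, had 55, 109 and 38 counts in Sham against 8, 10 and 19 in CKD and fell by 2.90 ± 0.60 (edgeR adjusted p = 0.0480; called under 9 of 16 alternatives, adjusted p 9.87e-05 to 0.201). AY172581.16, between Mt-nd3 and Mt-nd4l, had 82, 252 and 96 counts against 36, 33 and 43 and fell by 2.41 ± 0.52 (edgeR adjusted p = 0.0493; called under 6 of 16 alternatives, adjusted p 0.000157 to 0.201). Without Sham 2 its log2 fold change was -1.75 (edgeR adjusted p = 0.0635), and those of AY172581.10, AY172581.7 and AY172581.1 were -2.02, -1.99 and -2.38, none of them past the threshold. The strand setting of the counting is unknown here, so reads of a minus-strand tRNA and of a plus-strand precursor across it cannot be told apart.

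AY172581.2 (MT 15348 to 15415, minus strand), the tRNA gene with the most counts in each CKD library, had 943, 2589 and 1052 counts in Sham against 692, 515 and 608 in CKD. Its log2 fold change of -1.82 ± 0.41 lay within the range of the mRNAs and did not pass (edgeR adjusted p = 0.0548). AY172581.11, ahead of Mt-nd5, had 219, 867 and 250 counts against 114, 138 and 143, a value of -2.24 ± 0.56 that did not pass (edgeR adjusted p = 0.0671). The other 5 tested tRNAs had 5 to 286 counts per library and log2 fold changes from -1.98 to -2.82.

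The 9 untested genes were tRNAs with at most 41 counts in any library. AY172581.12, between AY172581.19 and Mt-co2, had 7, 41 and 18 counts in Sham against 2, 1 and 0 in CKD. AY172581.13, the first gene of the map, had 0 counts in all 6 libraries, which allows up to 3 counts in each. Another 4 of the 9 were at 0 in all CKD libraries, with at most 15 counts in a Sham library.

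Dividing each gene by the mitochondrial total of its library compares composition at equal mitochondrial totals. On this scale 11 of the 37 genes did not overlap between groups, all lower in CKD: Mt-nd2, Mt-atp8, the large rRNA and 8 tRNAs, of which 3 were untested. Among the 28 tested genes the number was 8. Of the untested ones, AY172581.6 had 2, 5 and 4 counts in Sham against 1, 0 and 0 in CKD. AY172581.8 had 1, 15 and 2 against 0, 0 and 0, so 1 count could close either gap. Each of the 11 had p = 0.1 in a two-sided exact permutation test, the smallest that 3 libraries against 3 allow. Of all 15371 genes, 76.6% did not overlap when divided by the same totals, a share that includes the difference in those totals. With 1 library left out the count of 11 became 12 to 21, with 21 without Sham 1 and 18 without CKD 1. Leaving out a library cannot create overlap, so this count could only hold or rise and does not test the 11.

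**Figure D4:**
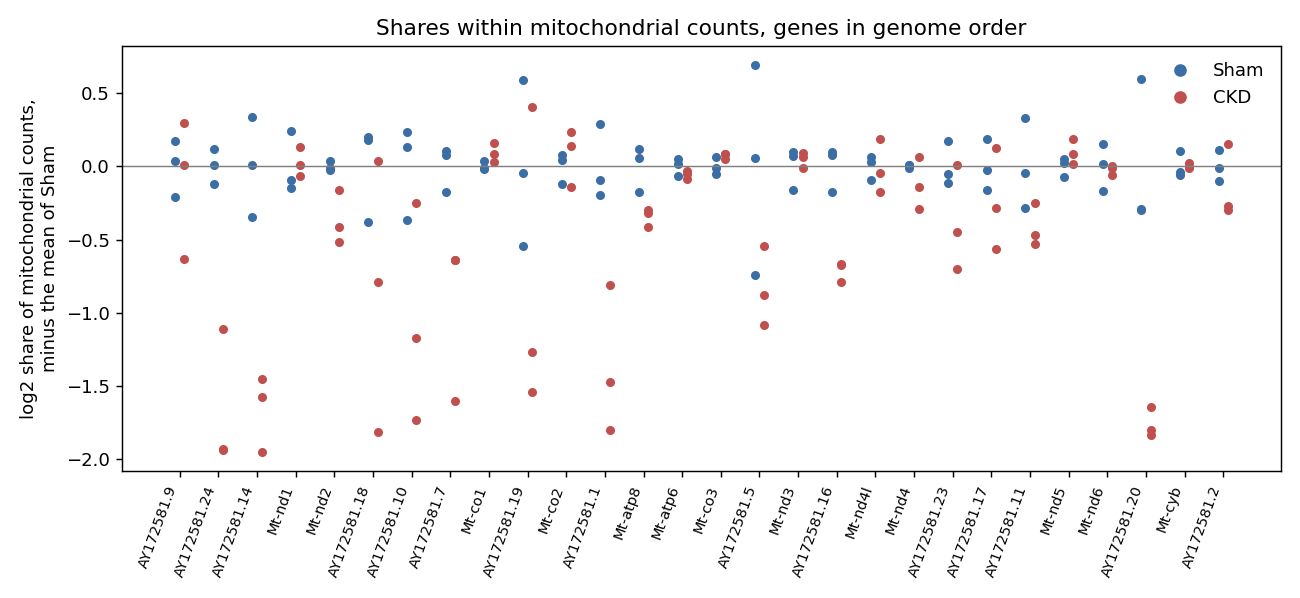
Points are libraries: the log2 share of mitochondrial counts of each of the 28 tested genes, minus the mean of the 3 Sham libraries, with genes in genome order. Most mRNAs lie near 0 in both groups, while all CKD points of the large rRNA (AY172581.24), AY172581.14 and AY172581.20 lie below the Sham points.

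For 11 of the 13 mRNAs the shares overlapped. Mt-co1 took 33.0%, 33.1% and 34.3% of mitochondrial counts in Sham and 37.3%, 35.3% and 34.1% in CKD. Without Sham 3 or without CKD 3 all CKD shares were the higher ones, but leaving out a library can only remove overlap. Mt-cyb took 9.50% ± 0.589 in Sham and 9.51% ± 0.103 in CKD, and Mt-atp6 12.1% ± 0.490 and 11.6% ± 0.208 (SD, n = 3 each). Mt-nd2 took 6.10%, 6.28% and 6.03% in Sham and 4.29%, 4.59% and 5.47% in CKD. Its groups did not overlap, and the ratio of means was 0.780, or 0.724 to 0.820 with 1 library left out. Mt-atp8 took 0.0270%, 0.0221% and 0.0260% in Sham and 0.0187%, 0.0203% and 0.020% in CKD. The large rRNA took 1.27%, 1.17% and 1.07% in Sham and 0.307%, 0.540% and 0.305% in CKD, a ratio of means of 0.328 (0.261 to 0.362 with 1 library left out).

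By complex, complex I mRNAs made up 28.7%, 27.4% and 27.4% of mitochondrial mRNA counts in Sham and 23.8%, 25.5% and 28.5% in CKD. Complex IV mRNAs made up 49.2%, 50.5% and 51.0% in Sham and 55.2%, 53.0% and 50.1% in CKD. In CKD 1 and CKD 2 complex I lay below and complex IV above all Sham libraries, while CKD 3 did not, so the groups overlapped for both. Complex III took 10.3%, 9.40% and 9.22% in Sham and 9.50%, 9.55% and 9.68% in CKD, and complex V 11.7%, 12.7% and 12.4% and 11.5%, 11.9% and 11.7%, which overlapped as well.

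Sham 2 stood apart in the amount of mitochondrial RNA. Its counts of the 13 mRNAs were 2.19 to 2.89 times the mean of the other Sham libraries. Its shares of these mRNAs within mitochondrial counts were 0.835 (Mt-atp8) to 1.10 (Mt-nd3) times theirs.

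Nuclear DNA encodes the enzymes that copy, transcribe and process the mitochondrial genome, and most respiratory chain subunits. Of all 15371 genes tested, 23.8% had p below 0.05 before adjustment, 50.5% had a negative fold change and 12.4% were lower without overlap. Of 16 tested genes of mitochondrial transcription and replication 0 passed in edgeR (2 at p below 0.05 before adjustment). Among them 6 had a negative fold change, 3 were lower and 2 higher without overlap, and the median was 0.18. Tfb2m, which helps to open mitochondrial promoters, and Ssbp1, which coats single-stranded mitochondrial DNA, had log2 fold changes of -0.66 ± 0.21 and -0.64 ± 0.26 (edgeR adjusted p = 0.106 and 0.188). Tfam, which packs mitochondrial DNA and starts its transcription, stood at 41.9, 26.2 and 38.1 CPM in Sham and 31.4, 39.5 and 35.0 in CKD. The mitochondrial RNA polymerase Polrmt stood at 28.9, 50.5 and 32.1 CPM and 36.4, 44.5 and 45.4. Both overlapped between groups; these 2 genes were chosen after their values were seen.

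Of 25 tested genes of mitochondrial RNA processing and stability 0 passed in edgeR (4 before adjustment). Among them 18 had a negative fold change, 5 were lower and 2 higher without overlap, and the median was -0.27. Tbrg4, an RNA-binding protein of the FASTK family, had -0.52 ± 0.18, and Hsd17b10, a subunit of the mitochondrial tRNA-cutting RNase P, -0.91 ± 0.32 (edgeR adjusted p = 0.130 and 0.137). Of 14 tested genes of the mitochondrial stress response 1 passed (5 before adjustment). Among them 12 had a negative fold change, 5 were lower and 0 higher without overlap, and the median was -0.42. Chac1, a glutathione-degrading enzyme, stood at 1.93, 5.52 and 3.38 CPM in Sham and 0.820, 0.447 and 0.410 in CKD and fell (-2.67 ± 0.58, edgeR adjusted p = 0.0498). In CKD 2 and 3 Chac1 missed the minimum count, so it was tested through its level in Sham. Atf4, a transcription factor of that response, had -0.94 ± 0.21 and did not pass (edgeR adjusted p = 0.0548). Of 16 tested genes of biogenesis, mitophagy and dynamics 0 passed in edgeR (2 before adjustment), with a median of -0.19. Of these 16, 13 had a negative fold change, 1 was lower and 0 were higher without overlap. Bnip3, a mitophagy receptor, and Ppargc1b, a coactivator of mitochondrial genes, had -1.23 ± 0.30 and -0.96 ± 0.33 (edgeR adjusted p = 0.0628 and 0.131).

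Of 25 tested nuclear subunits of the respiratory chain 0 passed in edgeR (7 before adjustment), 24 had a negative fold change, 13 were lower without overlap and the median was -0.50. Cycs, cytochrome c, had -1.39 ± 0.37 and Atp5me, a subunit of the ATP synthase, -0.66 ± 0.20 (edgeR adjusted p = 0.0755 and 0.0980). The list summed to 14531, 8573 and 12702 CPM in Sham 1, 2 and 3 against 7605, 8713 and 9830 in CKD 1, 2 and 3. Sham 2, the library with the most mitochondrial counts, had the lowest sum of the Sham libraries, within the range of the CKD sums. Subunits of high level weigh most in this sum. For the 13 subunits without overlap, Sham 2 lies above all CKD libraries by definition.

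Summed markers of kidney cell types also differed between libraries. Across all 15371 genes tested, 3.82% were called in either direction and 23.8% had p below 0.05 before adjustment in edgeR. The 10 proximal tubule markers summed to 19569, 8032 and 26807 CPM in Sham against 13556, 13478 and 18202 in CKD, and 0 of them passed. The 5 thick ascending limb markers summed to 7961, 3457 and 1942 CPM and 1270, 2590 and 3103. Distal markers were highest in Sham 2: those of the distal convoluted tubule summed to 169.9, 2845 and 1126 CPM in Sham against 733, 775 and 610.5 in CKD, of principal cells to 398, 1625 and 479.6 and 374, 293 and 259.6, and of intercalated cells to 299, 1729 and 519 and 189.9, 256 and 369.8. Macrophage markers summed to 372, 138 and 258 CPM in Sham against 1123, 1416 and 563 in CKD (1 of 6 rose, C1qa), and fibroblast and mural markers to 317, 59.8 and 175 and 792, 734 and 525 (1 of 5 rose, Col1a1). Lymphocyte markers summed to 6.27, 5.80 and 5.35 CPM in Sham against 34.1, 26.4 and 19.4 in CKD (2 of 5 rose, Lck and Cd3g). Cd3g, at 0.600 and 0.559 CPM in Sham 1 and 2, missed the minimum count there and was tested through its level in CKD. Podocyte, endothelial, red blood cell and adipocyte markers had 0 calls in edgeR (0, 2, 0 and 1 at p below 0.05 before adjustment). Podocyte markers summed to 201, 755 and 595 CPM in Sham against 453, 336 and 625 in CKD. Kidney tubule markers had counts in all 6 libraries. Fold changes were negative for 6 of 10 proximal tubule, 5 of 5 thick ascending limb and 3 of 3 tested distal convoluted tubule markers. They were negative for 5 of 5 principal cell and 5 of 5 intercalated cell markers, against 50.5% of all genes tested. In the same order 0, 1, 0, 3 and 1 were lower without overlap, against 12.4% of all genes. In these lists 0 markers were higher without overlap. The part of these cell types in the mitochondrial difference was not tested.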

How the data were processed

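The authors deposited raw counts per gene, 1 column per library, with gene lengths and coordinates. The submitters' processing notes name fastp 0.20.1, HISAT2 2.1.0, HTSeq 0.11.2 and Rnor_6.0 without a role or order, and the table's header gives no build for its coordinates. The treatment of reads that match several places is unknown here, and copies of mitochondrial sequence in nuclear DNA could take some reads. Columns were matched to libraries by title. Replicates of a group differed by more than sampling noise, with a chi-square of 32.9 to 356 per degree of freedom.

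Genes were kept by filterByExpr (minimum count 10, minimum total 15) and fitted with edgeR 4.0.16 in R 4.3.3 (TMM, robust quasi-likelihood, group as the only term), with Benjamini-Hochberg adjustment over 15371 genes. Standard errors came from the fold change and its F statistic. The fit was tested on simulated data. Shares were compared with exact permutation tests (scipy 1.17.1). Members and lists were chosen with earlier results of these data known. Named were the mitochondrial mRNAs and rRNAs, tRNAs with over 100 counts in every library, and the 2 genes with the smallest p of each nuclear list with any that passed; the other tRNAs and the marker genes were named after their values were seen. Alternatives were DESeq2 1.42.0, limma-voom (limma 3.58.1), other scalings and filters, a replicate block and each library left out.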

Additional observations from a re-analysis of the deposited data

How the results depend on the processing

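Each tested mitochondrial gene kept a negative log2 fold change under all alternatives in which it was fitted. The number called was 7 to 10 with other scaling factors, library totals, other filters or a fit that was not robust; it was 28 with DESeq2, 3 with limma-voom and 0 to 17 with 1 library left out. Over all genes, 587 calls became 2228 with library totals (2047 higher and 181 lower, against 411 and 176), 2497 with DESeq2, 195 with limma-voom and 0 to 1711 with 1 library left out. With 1 library left out, the CKD minus Sham difference in the mitochondrial share of counts ran from -17.1 to -5.33 percentage points. The difference in the rRNA share of mitochondrial counts ran from -0.91 to -0.72. The count of genes without overlap in share ran from 12 to 21, but it cannot fall when a library is left out. The causes were not tested.

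Same-numbered libraries did not deviate together (correlations -0.21, 0.0045 and -0.16 for numbers 1, 2 and 3). With 3 libraries per group this gives no sign of pairing by number but cannot exclude it. With the number as a replicate block 10 genes were called in all, and 0 mitochondrial genes in edgeR (20 of 28 at p below 0.05 before adjustment, against 18.7% of all genes). The 9 untested tRNAs had at most 41 counts in any library and did not pass the filter of the main fit. Without a filter 36 mitochondrial genes were fitted and 10 were called, against 722 of all 21904 genes fitted.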
